A study of Mus musculus with 12 samples.

Results

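The CC chemokine ligands examined here are 10 mouse genes, Ccl2, Ccl3, Ccl4, Ccl5, Ccl6, Ccl7, Ccl8, Ccl9, Ccl12 and Ccl24, among 20370 genes and transcript features tested. They were taken by name: every non-control probe whose gene name on the array is 1 of these symbols was used, which gave 10 probes, 1 per gene. The study profiled macrophages sorted from mouse pancreatic tumours on Agilent arrays and has 6 samples labelled YFP+ and 6 labelled YFP-. All 12 samples came from female mice of a strain given as C57/B6, 8 to 10 weeks old, that had received tumour implants. The genotype of these samples is stated as not provided. The series' design text names wild-type, KPC and FLT3-CRE/LSL-YFP mice, in the last of which YFP would mark descendants of cells in which Flt3-driven Cre had been active, so the meaning of YFP here rests on that text alone. Each YFP+ title shares a code ending in T with 1 YFP- title. These codes are read here as tumours and numbered 1 to 6, although the labels do not state what they are or that each is a separate animal. The p-values therefore speak to the variation among the 12 samples, whatever its source, technical variation included.

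Chemokines are small secreted proteins that direct the migration of leukocytes, and the CC class is named for a pair of adjacent cysteines near the amino terminus. Ccl2, Ccl7 and Ccl12 are ligands of the receptor CCR2, through which inflammatory monocytes leave the bone marrow and enter tissues, including tumours. Ccl3, Ccl4 and Ccl5 attract monocytes and T cells, Ccl3 and Ccl5 in part through CCR1. Ccl6 and Ccl9 are rodent ligands of CCR1, Ccl8 in the mouse acts mainly on CCR8, and Ccl24 attracts eosinophils through CCR3. Macrophages are themselves a source of many of these ligands, so the same cells can both respond to and emit them.

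By the array's annotation on mouse build mm9, 9 of the 10 probes lie on chromosome 11 in 2 blocks. The first block holds Ccl2, Ccl7, Ccl12 and Ccl8 within 79.5 kb, and the second holds Ccl5, Ccl9, Ccl6, Ccl3 and Ccl4 within 138.8 kb, 1409 kb further along. The first block runs from 81850650 (Ccl2) to 81930167 (Ccl8) and the second from 83339296 (Ccl5) to 83478111 (Ccl4). The Ccl24 probe lies on chromosome 5 from 136046667 to 136046726. Each probe is 60 bases long. Because every gene is read by a single probe and the ligands are related genes, the first 30 bases of each probe, 5′ to 3′, are shown to make plain what was measured.
Ccl2: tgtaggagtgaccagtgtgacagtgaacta
Ccl7: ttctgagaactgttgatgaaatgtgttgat
Ccl8: accagaagtctcaaattctgcagccttgaa
Ccl12: cctgaagttccccacgggcagtgtgatatt
Ccl3: catgaactgacaaatgtacaatagatgctt
Ccl4: tattatttatgttttagttataggacgcgt
Ccl5: tctcagctgctccgaggctctgcacagcaa
Ccl6: aatgtgtctggttctgatacaagcttaagc
Ccl9: caactaggatgaaataaattctgccttagc
Ccl24: ccaaggcagtgagaaccaagtttgctgtcc
Over the full probes, the longest run of bases that 2 members shared was 9, between Ccl8 and Ccl9. No part of a sequence is in capitals here, since no single stretch is compared.

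All 10 ligands gave clear signal in both groups of sorted macrophages, and none differed past the threshold between them. Every member was well above background on all 6 YFP+ and all 6 YFP- arrays. Signals are given as log2 of the background-subtracted signal relative to the array's 75th percentile, so a value of 0 is the signal that 75% of probes lie below, and all 10 ligands were above it on all 12 arrays (lowest 1.14, Ccl5 on a YFP- array). Levels of different ligands are not ranked, because the brightness of a probe also depends on its sequence. Over all genes, 1.75% of the 20370 tested differed at a limma adjusted p under 0.05, and 0 of the 10 ligands did. At an unadjusted p under 0.05 the share was 11.2% of all genes and 1 of the 10 ligands, Ccl7. The groups' ranges were disjoint in 1.88% of all genes and overlapped for every ligand.

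**Figure D1:**
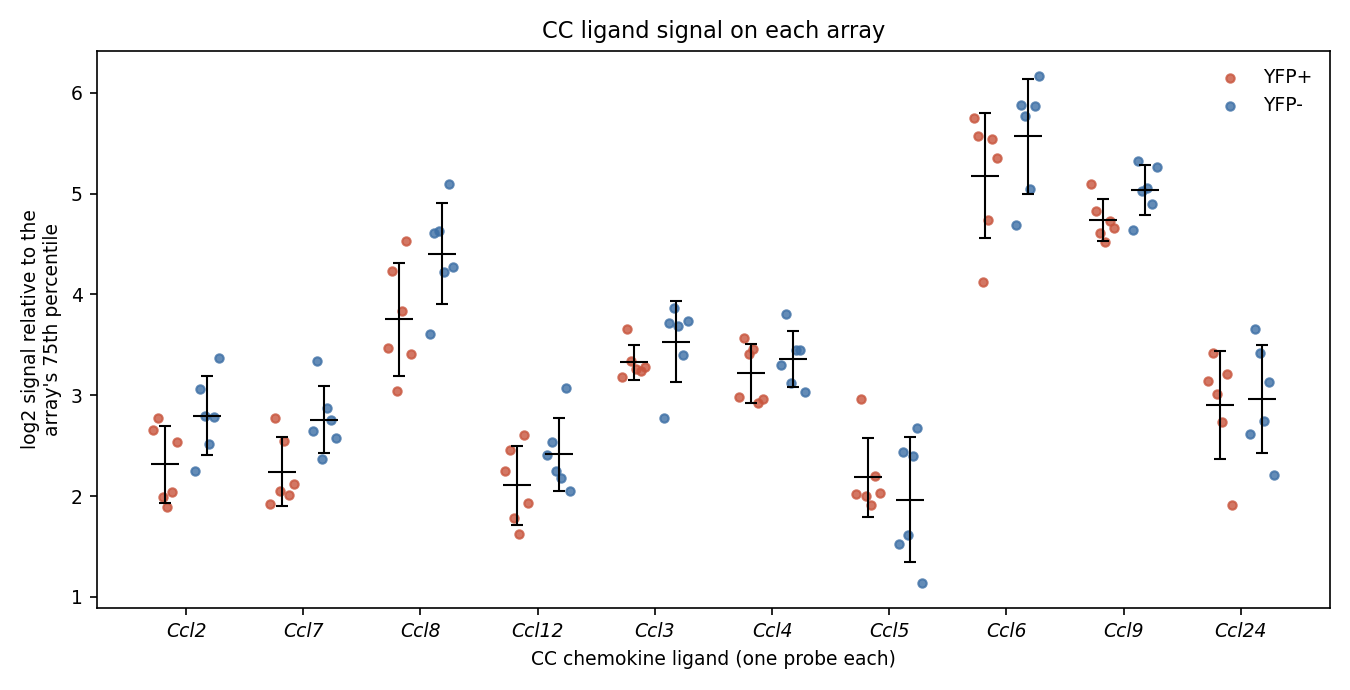
The log2 signal relative to the array's 75th percentile (vertical axis) is plotted for the 10 CC ligands (horizontal axis), with 1 point per array, YFP+ left of YFP-, and bars for the mean and SD of 6 arrays. The points of YFP+ and YFP- arrays overlap for every ligand, and Ccl8, Ccl7 and Ccl2 have the lowest YFP+ means relative to YFP-.

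Ccl8, Ccl7 and Ccl2, all of the first block, had the largest differences of the 10, each toward lower signal in YFP+ and none past the threshold. Ccl2, the main attractant of monocytes through CCR2, ranged over 1.89, 2.29 and 2.77 (lowest, median and highest) on YFP+ arrays and over 2.25, 2.79 and 3.37 on YFP- arrays. Its 4 lowest values were 3 YFP+ arrays, those of tumours 3, 4 and 5, and the YFP- array of tumour 1. The difference was −0.48 on the log2 scale (95% interval −1.005 to 0.042, n = 6 per group, limma adjusted p = 0.50), which as a ratio of YFP+ to YFP- is 0.716 with an interval from 0.498 to 1.03. Within the 3 slides, each with 2 arrays of each group, it was −0.43, −0.58 and −0.44, and with slide as a block its limma unadjusted p was 0.014 and its adjusted p 0.16. With that block 4 of the 10 ligands, Ccl2, Ccl6, Ccl7 and Ccl8, and 17.4% of all genes had an unadjusted p under 0.05, and 0 ligands passed after adjustment.

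Ccl7, a second CCR2 ligand whose probe lies 10.0 kb from that of Ccl2, ranged over 1.92, 2.09 and 2.78 on YFP+ arrays and 2.36, 2.70 and 3.34 on YFP- arrays. On 4 YFP+ arrays Ccl7 was below every YFP- array, and the YFP+ arrays of tumours 2 and 4 lay within the YFP- range. The difference was −0.52 (95% interval −0.99 to −0.04, n = 6 per group, limma unadjusted p = 0.035, adjusted p = 0.38), and within slides it was −0.02, −1.08 and −0.46. The interval covers ratios of YFP+ to YFP- from 0.502 to 0.97 and makes no allowance for the number of genes tested.

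Ccl8, the CCR8 ligand at the far end of the block, had a wide spread in both groups. It ranged over 3.04, 3.65 and 4.53 on YFP+ arrays and 3.60, 4.44 and 5.09 on YFP- arrays. The YFP+ arrays of tumours 2 and 5 reached the middle of the YFP- range, and the lowest YFP- array, that of tumour 1, lay among the YFP+ values. The difference was −0.65 (95% interval −1.32 to 0.01, n = 6 per group, limma adjusted p = 0.46), a ratio of 0.637, with −0.63, −0.85 and −0.48 within slides.

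Ccl12, the CCR2 ligand found in mice next to Ccl8, ranged over 1.62, 2.09 and 2.60 on YFP+ arrays and 2.05, 2.33 and 3.07 on YFP- arrays. Its difference was −0.31 (95% interval −0.82 to 0.21, n = 6 per group, limma adjusted p = 0.72), and within slides it was 0.05, −0.38 and −0.59. Differences of the other 3 in this block had the same sign within every slide, and that of Ccl12 did not. By tumour code the order was another: Ccl7, Ccl8 and Ccl12 were lower in YFP+ in all 6 codes. Ccl2 was lower in 5 of 6 and higher by 0.41 in that of tumour 1.

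**Figure D2:**
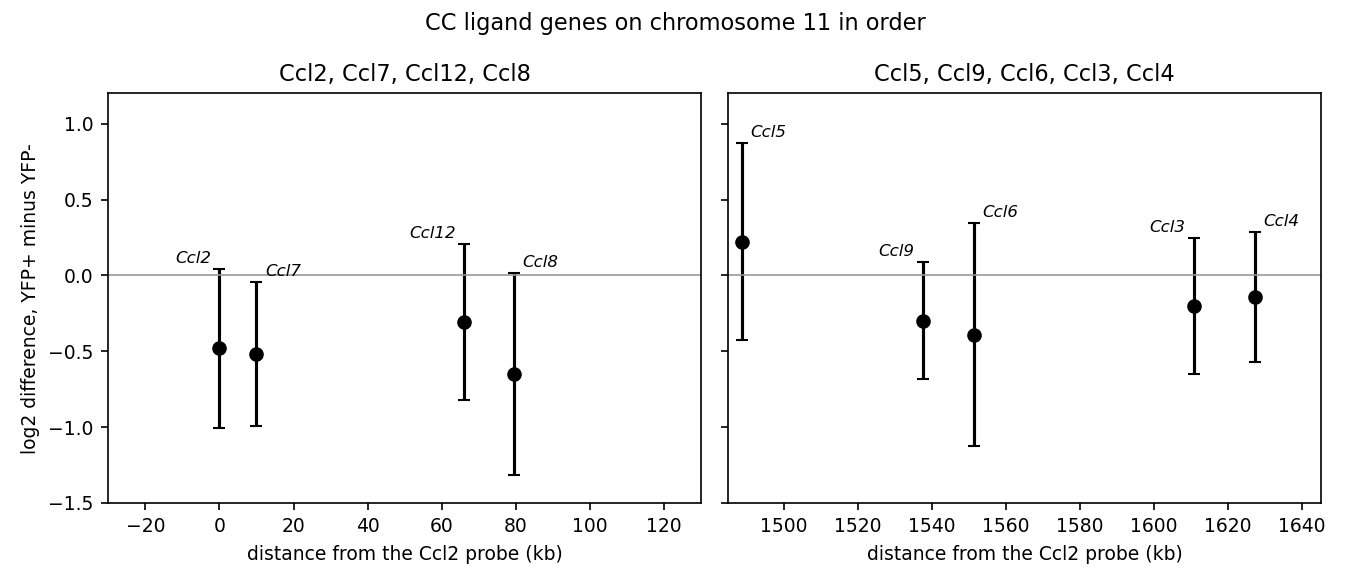
The log2 difference of YFP+ minus YFP- (vertical axis, points, with limma 95% intervals as bars) is plotted against the distance of each probe from the Ccl2 probe in kb (horizontal axis) for the 9 ligands on chromosome 11, with the blocks in separate panels of the same scale. All 4 points of the first block lie below 0, from −0.65 to −0.31, and the second block runs from −0.39 for Ccl6 to 0.22 for Ccl5.

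Ccl3 and Ccl4, the macrophage inflammatory proteins of the second block, had smaller differences than Ccl2, Ccl7 and Ccl8. Ccl3 ranged over 3.18, 3.27 and 3.66 on YFP+ arrays and 2.77, 3.70 and 3.86 on YFP- arrays, so that all YFP+ values lay inside the YFP- range. Its difference was −0.20 (95% interval −0.65 to 0.25, n = 6 per group, limma adjusted p = 0.80). Ccl4, the closely related neighbour whose probe is the last of the block, ranged over 2.92, 3.20 and 3.56 on YFP+ arrays and 3.04, 3.37 and 3.81 on YFP- arrays. Its difference was −0.14 (95% interval −0.57 to 0.29, limma adjusted p = 0.87), with values on both sides of 0 within slides (0.19, −0.67 and 0.06). These intervals leave room for ratios of YFP+ to YFP- from 0.636 to 1.19 for Ccl3 and from 0.673 to 1.22 for Ccl4, so the arrays do not show that either ligand was equal in the groups.

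Ccl5, also made by activated T cells and known as RANTES, was the 1 ligand of 10 with a positive difference at this scaling, against 47.2% of all genes. It ranged over 1.91, 2.02 and 2.96 on YFP+ arrays and 1.14, 2.004 and 2.67 on YFP- arrays. The medians nearly coincide, and the mean difference of 0.22 (95% interval −0.43 to 0.87, n = 6 per group, limma adjusted p = 0.87) came with 1.12 on slide 1, which holds the highest YFP+ array, that of tumour 2, and the lowest YFP- array, that of tumour 6. On the other slides it was −0.45 and −0.01. Without the YFP+ array of tumour 2 the Ccl5 difference was 0.066, and without the YFP- array of tumour 6 it was 0.057. Of 12 T and NK cell markers 7 were tested, 0 were called, 5 of the 7 had positive differences (median 0.23), and their summed signal, in units of the array's 75th percentile, spanned 3.32 to 9.74 on YFP+ arrays and 3.69 to 7.12 on YFP- arrays. Among the tested ones Cd3d (1.09, SE 0.87), Cd3e (0.71, SE 0.45) and Lck (0.52, SE 0.41) differed in the same direction as Ccl5, and each was above background on all 6 YFP+ arrays. On YFP- arrays Cd3d was above background on 4, Cd3e on 5 and Lck on 6. Nkg7 (−0.58, SE 0.44) and Ncr1 (−0.47, SE 0.44) differed in the opposite direction. Cd8a and Cd3g were above background on at most 1 array of either group, and Klrb1c on 0. The part of such cells in the Ccl5 signal was not tested.

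The CCR1 ligands Ccl6 and Ccl9 are abundant products of mouse myeloid cells. Ccl6 ranged over 4.13, 5.45 and 5.75 on YFP+ arrays and 4.69, 5.82 and 6.16 on YFP- arrays. The YFP+ arrays of tumours 3 and 4 and the YFP- arrays of tumours 1 and 4, all on slide 3, held its 4 lowest values. Its difference was −0.39 (95% interval −1.12 to 0.34, n = 6 per group, limma adjusted p = 0.76) and −0.51, −0.23 and −0.44 within slides. It was −0.18 without the YFP+ array of tumour 3 and −0.09 in the deposited value table. Ccl9 spread less between arrays, from 4.52 through 4.69 to 5.10 on YFP+ arrays and from 4.64 through 5.04 to 5.33 on YFP- arrays. Its difference was −0.30 (95% interval −0.68 to 0.09, limma adjusted p = 0.60), −0.40, −0.20 and −0.29 within slides.

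Ccl24, the eosinophil attractant also called eotaxin-2 and a product of macrophages exposed to interleukin-4, had the smallest difference. It ranged over 1.91, 3.07 and 3.42 on YFP+ arrays and 2.21, 2.93 and 3.65 on YFP- arrays, and the lowest array of each group was that of tumour 6. The difference was −0.06 (95% interval −0.73 to 0.61, n = 6 per group, limma adjusted p = 0.97), which allows ratios of YFP+ to YFP- from 0.605 to 1.53.

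Read as a family, 9 of the 10 ligands were lower in YFP+, against 52.8% of all genes tested. Such a lean was not particular to the ligands at this scaling: of 11 macrophage markers 10 were lower, though 4 of 11 in the deposited value table. The median difference of the ligands was −0.30, against −0.03 over all genes and −0.11 over the macrophage markers. How far it lay below 0 depended on the scaling. Centring each array on its median shifts the difference of every gene by the same amount. It moved the median of all genes to 0.18 and that of the ligands to −0.09, with 6 of 10 negative. Ccl3, Ccl4 and Ccl24 then had positive differences of 0.01, 0.07 and 0.15. In the authors' deposited value table the ligands had a median of −0.09, against 0.04 over all genes, with 9 of 10 negative. YFP+ arrays were brighter before scaling, with a 75th percentile of 3660 ± 266 against 2641 ± 412 on YFP- arrays (SD, n = 6 each). With that brightness as a covariate the ligands' median was 0.18, against 0.15 over all genes, and 4 of 10 were negative. Ccl2 (−0.11, SE 0.43) and Ccl7 (−0.56, SE 0.40) were among them, while Ccl8 (0.27, SE 0.47) and Ccl6 (0.57, SE 0.53) turned positive. Because brightness went largely with the group, that fit separates brightness from group poorly. Without the covariate the SEs were 0.24 for Ccl2, 0.22 for Ccl7, 0.31 for Ccl8 and 0.34 for Ccl6. In each of these settings 0 ligands were called.

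**Figure D3:**
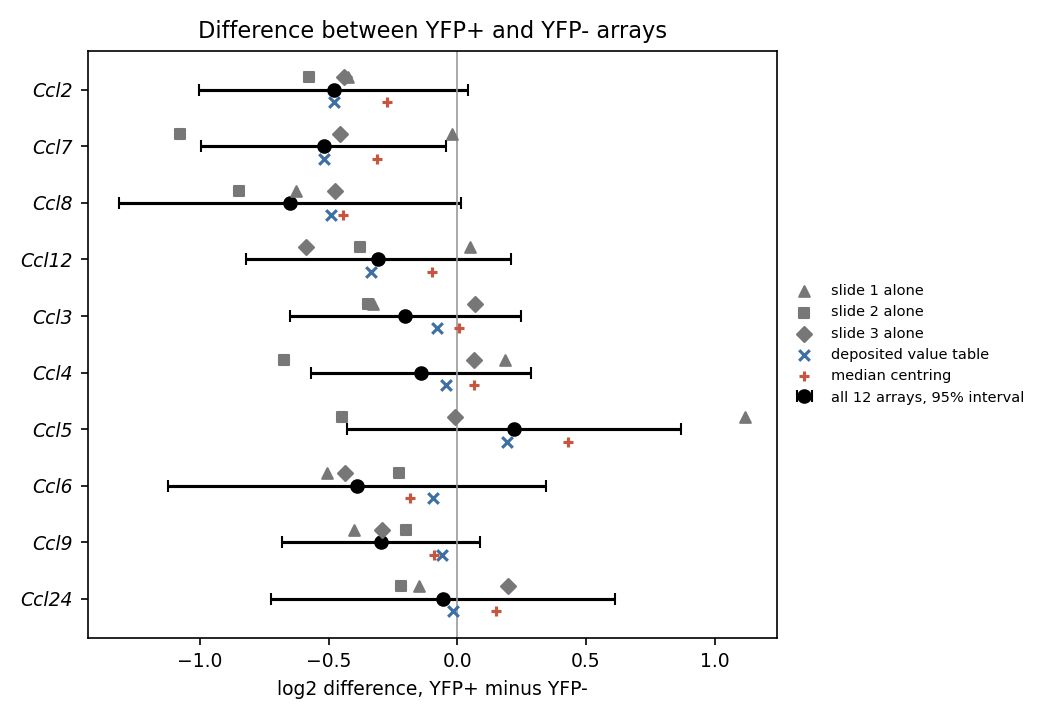
The log2 difference of YFP+ minus YFP- (horizontal axis) is given for each of the 10 ligands, with black points and bars for the limma estimate and 95% interval over 12 arrays, grey symbols for each slide alone, and coloured symbols for the deposited value table and for median centring. The Ccl7 interval alone excludes 0, with an upper end of −0.04. Median centring shifts every gene by the same amount, so it lies to the right of the black point for all 10.

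Ligands differed in which arrays were high and low, and this was followed after subtracting each group's mean. Of 45 pairs of ligands 41 had a positive Pearson correlation over the 12 arrays, which share the array's brightness and the slide as sources of variation. By a permutation test with 100000 rearrangements of arrays within groups (two-sided, Benjamini-Hochberg over the 45 pairs), 2 pairs passed. The number was 0 in the deposited value table, and with median centring or with slide effects removed it was 1. Ccl4 and Ccl7, from different blocks, had r = 0.86 (permutation p = 5.4e-04, adjusted p = 0.024) and Spearman's rho of 0.74 (permutation p = 0.012, adjusted p = 0.16). Without the 2 arrays farthest from the Ccl4 median r was 0.82, without the 2 farthest from the Ccl7 median 0.72, with slide effects removed 0.90, and it was 0.80 within YFP+ and 0.93 within YFP-. In both groups Ccl4 and Ccl7 were highest on the array of tumour 2.

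Ccl2 and Ccl6 had r = 0.81 (permutation p = 0.0021, adjusted p = 0.046) and rho = 0.86 (permutation p = 0.0022, adjusted p = 0.063). Without the 2 arrays farthest from the Ccl2 median r was 0.73, without the 2 farthest from the Ccl6 median 0.77, it was 0.70 within YFP+ and 0.93 within YFP-, and with slide effects removed it was 0.45. Ccl2 and Ccl9 followed with r = 0.79 (permutation p = 0.0037, adjusted p = 0.056), rho = 0.82 (permutation p = 0.0028, adjusted p = 0.063) and r = 0.68 without the 2 arrays farthest from the Ccl2 median. A slide holds 4 arrays, too few for a correlation within it. By rank none of the 45 pairs passed, and without single arrays the number of pairs that passed ran from 0 to 5: it was 0 without the YFP+ arrays of tumours 1, 2 or 6 or the YFP- array of tumour 2, 1 without the YFP+ array of tumour 5 or the YFP- arrays of tumours 1, 3, 5 or 6, and 5 without the YFP- array of tumour 4.

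**Figure D4:**
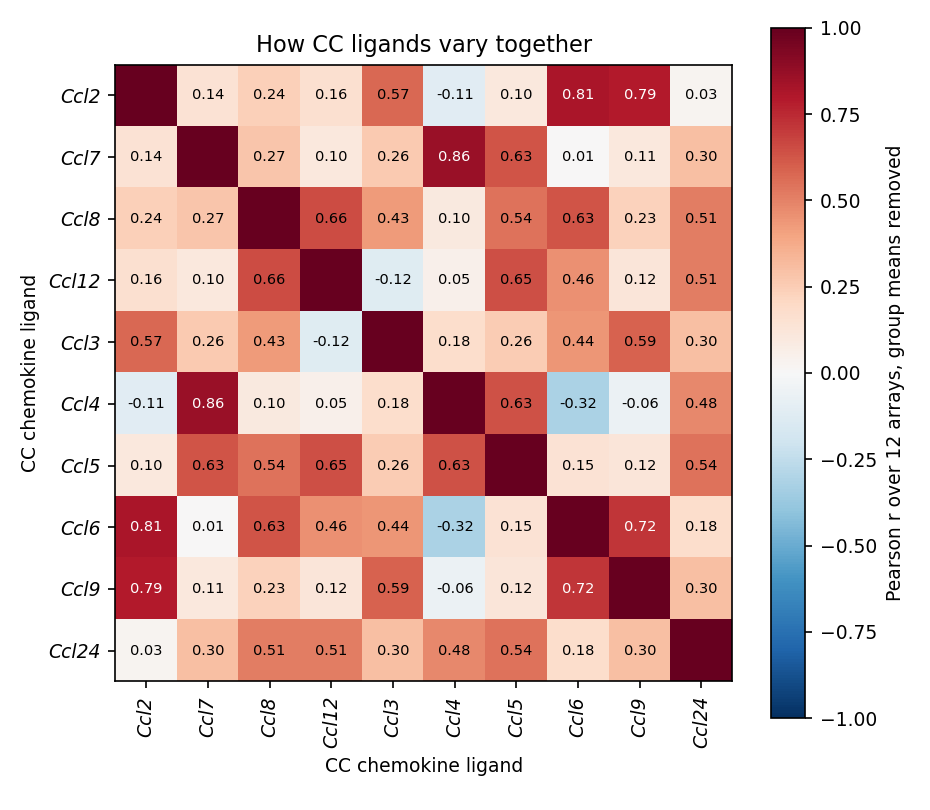
Each cell gives Pearson's r between 2 of the 10 CC ligands over 12 arrays after removal of the group means, with red for positive and blue for negative values on a scale from −1 to 1. Ccl4 with Ccl7 (0.86) and Ccl2 with Ccl6 (0.81) are the highest, and the lowest is −0.32, between Ccl4 and Ccl6.

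Position on chromosome 11 was set beside these values. The median r was 0.20 over the 6 pairs within the first block, 0.22 over the 10 pairs within the second, and 0.30 over the 29 pairs that do not share a block. Those 29 include the pairs with Ccl24, whose probe is not on chromosome 11. Ccl2 and Ccl7, whose probes are closest in the first block, had r = 0.14, and Ccl3 and Ccl4 had r = 0.18. Ccl6 and Ccl9, adjacent in the second block, had r = 0.72 (permutation p = 0.012, adjusted p = 0.14; rho = 0.72, permutation p = 0.014, adjusted p = 0.16), and r was 0.60 and 0.56 without the 2 arrays farthest from the Ccl6 and the Ccl9 median. Ccl8 and Ccl12, adjacent in the first block, had r = 0.66 (permutation p = 0.034, adjusted p = 0.19; rho = 0.55, permutation p = 0.091, adjusted p = 0.38). Without the 2 arrays farthest from the Ccl8 median r was 0.68, and without the 2 farthest from the Ccl12 median it was 0.31, so the relation of Ccl8 and Ccl12 rests in part on those arrays. With slide effects removed r was 0.41 for Ccl8 and Ccl12 and 0.50 for Ccl6 and Ccl9. The 60 bases before the start of Ccl12 and Ccl8 are given from RefSeq on build GRCm38.p6, on the plus strand of chromosome 11 (chr11:82101785-82101844 for Ccl12 and chr11:82115125-82115184 for Ccl8), with the TATAAA motif in capitals.
Ccl12: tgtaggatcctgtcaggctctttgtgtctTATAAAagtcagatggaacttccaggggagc
Ccl8: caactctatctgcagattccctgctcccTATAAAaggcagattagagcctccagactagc
The motif begins 31 bases before the start of Ccl12 and 32 bases before that of Ccl8. On either strand it occurs in the last 60 bases of 3.92% of 32851 promoters, and in 2 of the 5 members matched there by symbol (Ccl3, Ccl6, Ccl8, Ccl9 and Ccl12). Ccl6 and Ccl9, the adjacent genes with the higher r, lack the motif in those bases. Whether it bears on shared variation was not tested.

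The genes whose variation between arrays was most like that of each ligand, by Pearson's r over 12 arrays with group means removed and among 14140 named genes, were mostly outside the chemokines. Ccl6 followed Tpt1 and Khdc1c (r = 0.99 for each), Ccl24 followed Pxdc1 and Pde4b (0.96 for each), and Ccl3 followed Rasd2 (0.97) and Mga (0.90). Ccl9 followed Sptb and Zfp81 (0.96 for each), Ccl2 followed Cln8 and Pnrc1 (0.95 for each), and Ccl12 followed Olfr1208 and Dock4 (0.93 for each). Ccl8 followed Gas6 and Ankrd34a (0.91 for each), and Ccl5 followed C5ar2 (0.90) and Galnt2 (0.89). Ccl4 followed Lrrcc1 (0.87) and Ccl7 (0.86), and Ccl7 followed Platr26 (0.87) and Ccl4. These are the highest values out of many compared over few arrays and are given as a description.

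Of 14 other CC ligand genes 10 had a probe by that name, of which 5 were tested and 5 were too dim, and 4 (Ccl21a, Ccl21b, Ccl21c and Ccl27b) were not measured under these names. Ccl17, a CCR4 ligand, was bright in both groups, with 4.18 ± 0.41 on YFP+ arrays and 4.14 ± 0.34 on YFP- arrays (SD, n = 6 each), and Ccl25, a CCR9 ligand, averaged 1.03 ± 0.996 on YFP+ arrays and 1.37 ± 1.02 on YFP- arrays. Of the 5 tested 0 were called, with 2 at a limma unadjusted p under 0.05. With slide as a block 1 was called lower, Ccl19 (limma adjusted p = 0.015). Ccl19, a CCR7 ligand of lymphoid stroma, differed by −0.79 (SE 0.23, n = 6 per group, limma adjusted p = 0.13) without the block, and Ccl27a by −0.78 (SE 0.33, adjusted p = 0.37). Ccl22, a CCR4 ligand of dendritic cells and macrophages, differed by 0.94 (SE 0.67, adjusted p = 0.68) and was above background on 5 YFP+ and 4 YFP- arrays. Ccl20 and Ccl28 were above background on 0 arrays, Ccl1 on 1, and Ccl11, the eotaxin of stromal cells, on 1 YFP+ and 2 YFP- arrays.

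The receptors for these ligands gave no called difference either. Of 15 CC and atypical receptor genes 11 were tested, 8 with positive and 3 with negative differences and a median of 0.30, against −0.03 over all genes. Under the other scalings 8 to 10 of the 11 were positive. Ccr2, the receptor of Ccl2, Ccl7 and Ccl12, differed by 0.30 (SE 0.21, n = 6 per group, limma adjusted p = 0.66), opposite in sign to its ligands. Ccr10, the receptor of Ccl27 and Ccl28, differed by 1.55 (SE 0.56, adjusted p = 0.28) and Ccr6, the receptor of Ccl20, by 1.53 (SE 0.96, adjusted p = 0.62). Ccr10 was above background on 6 YFP+ and 5 YFP- arrays, and Ccr6 on 6 YFP+ and 4 YFP- arrays. Ccr8, the receptor of mouse Ccl8, was above background on at most 1 YFP+ and 2 YFP- arrays.

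Pathways known to induce these ligands were followed through lists. All 12 genes of the NF-kB list, transcription factors and regulators through which inflammatory signals induce Ccl2, Ccl3, Ccl4 and Ccl5, had positive differences (median 0.20, 0 called, 0 at an unadjusted p under 0.05; 11 positive with array brightness as a covariate, 12 under the other scalings), among them Nfkb1 at 0.44 (SE 0.27, limma adjusted p = 0.62). The 14 interferon response genes had a median of 0.19 with 9 positive and 0 called (−0.59 with 6 positive when brightness was a covariate), and Ifit3 stood at −1.06 (SE 0.36, adjusted p = 0.23). The 8 genes of the interleukin-4 and STAT6 response, the setting in which macrophages make Ccl24, divided evenly around a median of −0.04 (0.05 in the deposited value table) with 0 called. Among them the transcription factor Pparg differed by −0.93 (SE 0.38, adjusted p = 0.36) and the mannose receptor Mrc1 by −0.42 (SE 0.19, adjusted p = 0.44). Stat6 itself differed in the opposite direction, by 0.37 (SE 0.18, adjusted p = 0.49). Of 9 immediate early genes, which respond quickly to the handling of cells, 7 were negative (median −0.29, 0 called), but 4 of 9 in the deposited value table (median 0.02) and 3 with brightness as a covariate (0.24), with Egr1 at −0.57 (SE 0.21, adjusted p = 0.28).

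Macrophage markers were present in both groups, and markers of some other cell types, but not of all, differed between the groups. The 11 macrophage markers were all tested, with 10 negative, 1 positive and 0 called. Their median was −0.11, but 0.06 in the deposited value table, 0.10 with median centring and 0.44 with brightness as a covariate. Their summed signal was 180 to 306 times the array's 75th percentile on YFP+ arrays and 204 to 343 times on YFP- arrays. All 12 fibroblast markers were lower in YFP+ and 7 fell (median −1.79, summed signal 22.2 to 41.4 on YFP+ arrays and 59.3 to 141 on YFP- arrays). All 10 epithelial markers were lower and 5 fell (median −1.95, 5.01 to 11.5 on YFP+ arrays and 15.7 to 42.1 on YFP- arrays). All 11 acinar markers were lower (median −1.59, 4.85 to 32.1 on YFP+ arrays and 14.5 to 126 on YFP- arrays). Of them 1 passed, Cela1 (limma adjusted p = 0.0495), which was above background on 2 YFP+ and 6 YFP- arrays and was not called with slide as a block, with the tumour code as a block, in the deposited value table or with quantile normalization, median centring or the brightness covariate. With the tumour code as a block a different acinar marker, Amy2a5, was called lower (limma adjusted p = 0.042). Of 6 red cell markers 5 were tested, with 3 fallen (3.82 to 27.1 on YFP+ arrays and 28.5 to 92.5 on YFP- arrays). Of 9 mast cell, basophil and eosinophil markers 5 were tested and 3 fell, including the basophil protease Mcpt8 at −3.80 (SE 0.61, limma adjusted p = 0.0067) (summed signal 1.81 to 4.86 on YFP+ arrays and 5.67 to 18.8 on YFP- arrays). Of 10 neutrophil markers 7 were tested, 5 negative and 2 positive (Cxcr2 at 1.02 and Retnlg at 1.71), with 0 called (median −1.65, 1.27 to 4.74 on YFP+ arrays and 2.72 to 7.86 on YFP- arrays). S100a9 was called lower with the tumour code as a block (limma adjusted p = 0.037), and Ltf, Mpo and S100a9 with normexp. The endothelial, B and plasma cell and dendritic cell lists had 0 called, with medians of −0.10, 0.55 and 0.64. In the B and plasma cell list Jchain (4.78, SE 1.47 without a block) was called higher with slide as a block (limma adjusted p = 0.022) and Sdc1 (−1.13) lower with the tumour code as a block (adjusted p = 0.043). Jchain was above background on 6 YFP+ and 3 YFP- arrays. With brightness as a covariate 1 fibroblast marker, Postn, and 0 epithelial, acinar, red cell or granulocyte markers were called, while the medians of these lists stayed negative. Fibroblasts, tumour epithelium and granulocytes can make Ccl2, Ccl7 and other ligands of the list, and their part in the ligands' differences was not tested. In RNA from sorted pools, fewer cells of a type and less RNA per cell cannot be told apart.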

How the data were processed

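RNA of sorted macrophages was amplified as cDNA and labelled with Cy5 for Agilent mouse arrays, per the labels' protocols. The intensity values the authors deposited were, per the file headers, made with Agilent Feature Extraction 11.5.1.1 from the red channel, with background subtracted and spatially detrended within each array. The deposited value table is on a log2 scale, judged by its values, with equal quantiles on all arrays. How it was normalised is not given in the sources used here.

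Control spots (1377) and outlier spots were dropped and repeat spots averaged. Of 39429 probes, 35 lacked a value on some array. From log2 processed signal each array's 75th percentile was subtracted, in the red channel, the only one these files hold. Only probes above background on 6 or more of the 12 arrays entered, with 1 probe per gene, the brightest. Gene names were updated by accession through a RefSeq table (GRCm38.p6). The model was limma 3.58.1 (R 4.3.3) with group as its factor and Benjamini-Hochberg adjustment over 20370 genes, threshold 0.05, after a test on simulated data. Correlations used Python 3.11.15 with numpy 2.4.6. Slides were numbered by array barcode. Besides the ligands, the text names from each list the 3 genes of lowest p (or fewer) and the 2 genes most like each ligand. Genes not above background, markers called in some setting, Ccl17, Ccl25 and the neutrophil, T and NK cell markers were named after their values were seen. The ligands and lists were chosen with earlier results of these data known. The number of arrays limits the precision. Alternatives are in the closing section.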

Additional observations from a re-analysis of the deposited data

Results flagged for a closer look

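A pair of values stood apart from the other arrays of their group by Dixon's criterion, among 20 sets of 6 arrays checked, where chance alone gives about 1 in 20. Both are on the YFP+ array of tumour 2: Ccl5 was at 2.96 there, against 2.20 on the next YFP+ array, and Ccl3 was at 3.66, against 3.34 on the next. Without that array the Ccl5 difference of YFP+ minus YFP- was 0.066 in place of 0.22, that of Ccl3 was −0.27 in place of −0.20, and 0 ligands were called.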

How the results depend on the processing

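Under all 28 alternatives 0 of the 10 ligands passed the threshold (adjusted p from 0.149 to 0.999), and 262 of the 280 ligand differences kept their sign. Part of that count was fixed in advance. Either block, another background filter, another summary of probes, or trend and robust moderation leaves the ligands' differences unchanged, so no sign could turn there. Signs turned for Ccl4 (0.19) and Ccl12 (0.047) on slide 1 alone, for Ccl5 (−0.45) on slide 2 alone, and for Ccl3 (0.069), Ccl4 (0.063), Ccl5 (−0.0076) and Ccl24 (0.20) on slide 3 alone. They also turned for Ccl3 (0.0058), Ccl4 (0.066) and Ccl24 (0.15) with median centring, and for Ccl3 (0.39), Ccl6 (0.57), Ccl8 (0.27), Ccl9 (0.081) and Ccl24 (0.91) with array brightness as a covariate, where the ligands' median was 0.18. Without single arrays the Ccl24 difference ran from −0.21 to 0.14, the ligands' median from −0.36 to −0.22, and the genes called from 266 to 383. In place of 356 genes, 556 were called with slide as a block, 0 on each slide alone (1847, 1798 and 1618 at an unadjusted p under 0.05), 541 with normexp, 233 when all 12 arrays had to be above background and 12 with the brightness covariate. The cause was not tested, except that a single slide holds fewer samples. The brightness covariate went largely with the group and came with larger SEs, for Ccl7 0.40 against 0.22 without it. Median centring called 116 of 346 genes higher in YFP+, against 68 of 356. Ligand pairs that passed numbered 1 with slide effects removed or median centring, 0 in the deposited value table or by Spearman's rho, and 0 to 5 without single arrays. With the tumour code as a replicate block 296 genes and 0 ligands were called (lowest ligand adjusted p 0.269). At a limma unadjusted p under 0.05 that fit had 2401 of the 20370 genes and 2 of the 10 ligands, Ccl7 and Ccl8. The deviations of arrays with the same code correlated at −0.30 to 0.37, and 3 of 6 codes matched themselves best, tumours 4, 5 and 6, whose arrays also share a slide. Whether a code marks 1 animal is not stated, so both fits are given.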
